A study of Mus musculus with 20 samples.

Results

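Apelin and a small group of genes known from sprouting tip cells were followed in endothelium from mouse ears with contact hypersensitivity. The 7 members are Apln, Aplnr, Esm1, Adm, Kcne3, Pdgfb and Cd34, chosen by name out of 22180 genes with a probe set of their own. Each had exactly 1 such probe set on the array, so 7 of 7 were measured, and all 7 passed the filter on low values that kept 14178 genes. A sprouting vessel is led by a tip cell, which extends filopodia along a gradient of vascular endothelial growth factor. Stalk cells follow behind it. Delta-like 4 on the tip cell activates Notch1 on its neighbours and holds them back from the tip cell state, and the members are known from studies of tip cells and their surroundings, largely in the mouse retina.

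The data are 20 Affymetrix arrays of CD31+CD45-Ter119- cells sorted from collagenase-digested ears, amplified from 1 ng of total RNA. The groups held 4 NICD DNFB, 4 NICD vehicle, 6 control DNFB and 6 control vehicle arrays. NICD mice carry an inducible allele of the Notch1 intracellular domain (R26-NICD, also written RosaNICD), which keeps Notch1 signalling on without ligand. Its Cre driver is Pdgfb-CreERT2 in the genotype label and CDH5-iCre in the growth protocol, and the labels do not settle which was used. Control mice are labelled only as control, with no alleles given, and no ages are given. By the shared treatment protocol, mice had 5 tamoxifen injections before the experiment, dinitrofluorobenzene (DNFB, a skin hapten) on the skin on days 0 and 1, and a single ear challenge on day 5. Ears were taken 24 h later. Whether vehicle mice had been sensitised is not stated. For NICD vehicle replicate 4 the title says vehicle and the description DNFB. It was analysed as vehicle, and the members' DNFB effects in NICD mice and vehicle-ear differences are also given without it.

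Several properties of the whole series touch the genotype comparisons. The array medians were 3.52 to 3.62 in NICD arrays, against 3.87 to 3.98 in control arrays, on the log2 scale. Xist was 8.47 to 9.07 in NICD arrays and 2.27 to 3.16 in control arrays, while Eif2s3y was 2.11 to 2.79 in NICD arrays and 6.08 to 7.12 in control arrays. Genotype therefore cannot be told apart from sex or from the set of arrays, and each member's NICD minus control value is given as deposited and again after each array was centred on its median. Notch1 itself was 9.47 to 9.87 in NICD arrays and 9.52 to 10.02 in control arrays, which overlapped. Its mean as deposited was 9.76 in NICD DNFB and 9.76 in control DNFB arrays, so a difference in DNFB ears appeared only with centring. After centring 28.8% of all probe sets passed in that comparison. After centring, Notch1 was 9.86 to 10.07 in NICD DNFB arrays and 9.41 to 9.73 in control DNFB arrays, which did not overlap (difference 0.37 ± 0.10, limma adjusted p 0.00688), and 9.68 to 10.003 in NICD vehicle arrays and 9.54 to 9.82 in control vehicle arrays, which did (adjusted p 0.111). On the first principal component NICD vehicle replicate 4 scored -44.3, inside the NICD vehicle range of -46.9 to -42.3. NICD DNFB arrays ran from 32.0 to 34.7, control DNFB arrays from 31.8 to 56.2 and control vehicle arrays from -41.1 to -32.7. The sorted cells carried endothelial transcripts, with Pecam1 at 11.4 to 11.8 and Cdh5 at 11.6 to 12.1 over the 20 arrays. Markers of other cells were also high, with Krt14 of keratinocytes at 10.6 to 12.3 and Rgs5 of pericytes at 9.31 to 11.4.

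Promoter sequences are shown for the 2 peptide genes that rose with DNFB, Apln and Adm, and for Esm1, which with Apln was higher in NICD than control vehicle ears. They are the 250 bases before the RefSeq start (GRCm38.p6), found for 5 of the 7 members, and read 5′ to 3′ on the gene's strand. Apln lies at chrX:48034854-48035103 on the minus strand, Adm at chr7:110627407-110627656 on the plus strand and Esm1 at chr13:113209409-113209658 on the plus strand. Capitals mark any match, on either strand, to the hypoxia core ACGTG or GCGTG or to TGGGAA, the core bound by the Notch partner RBPJ.
Apln: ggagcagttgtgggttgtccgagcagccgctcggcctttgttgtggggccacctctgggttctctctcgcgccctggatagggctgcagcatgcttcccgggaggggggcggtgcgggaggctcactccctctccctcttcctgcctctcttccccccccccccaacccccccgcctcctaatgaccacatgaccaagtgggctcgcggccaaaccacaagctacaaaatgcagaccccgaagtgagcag
Adm: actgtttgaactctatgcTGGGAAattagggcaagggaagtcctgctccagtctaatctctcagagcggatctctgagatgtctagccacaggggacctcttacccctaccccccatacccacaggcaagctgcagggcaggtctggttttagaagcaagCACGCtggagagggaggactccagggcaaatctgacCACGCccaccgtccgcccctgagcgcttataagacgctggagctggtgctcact
Esm1: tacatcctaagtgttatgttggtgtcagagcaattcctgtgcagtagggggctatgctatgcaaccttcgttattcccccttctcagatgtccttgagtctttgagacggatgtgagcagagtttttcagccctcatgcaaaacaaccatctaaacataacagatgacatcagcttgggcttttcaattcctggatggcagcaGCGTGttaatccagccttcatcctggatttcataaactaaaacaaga
Adm held 2 matches to GCGTG and 1 to TGGGAA, Esm1 held 1 match to GCGTG, and Apln held none of these letters. Over 32851 promoters of this length, 38.6% held a hypoxia core and 21.6% held TGGGAA.

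In the DNFB ears the ligand and its receptor moved in opposite directions: Apln rose and Aplnr fell in both genotypes. Adm rose in both, Cd34 and Pdgfb fell in control mice, Esm1 fell in NICD mice, and Kcne3 did not pass the test in any comparison. In NICD mice 2 members were higher and 2 lower with DNFB, where 38.1% of all 14886 probe sets tested passed an adjusted p of 0.05 (20% higher, 18.1% lower). In control mice 2 members were higher and 3 lower, where 47.2% of all probe sets passed (23.7% higher, 23.6% lower). With backgrounds that high, the count of members called is a description of these genes and not of a set that stands apart. The median difference of the members was -0.28 in NICD mice and -0.47 in control mice, against 0.01 in NICD mice and -0.0012 in control mice over all probe sets. All p-values are limma values with Benjamini-Hochberg adjustment over these 14886 probe sets, and differences are log2 differences ± 1 SE.

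Apln (probe set 17541378, chromosome X) encodes the secreted peptide apelin, which tip cells release and which acts on neighbouring endothelium. Its log2 values were 7.78, 8.33, 8.54 and 8.23 in NICD DNFB arrays, against 6.13, 5.88, 6.95 and 5.43 in NICD vehicle arrays. In control mice the lowest, median and highest were 7.69, 8.13 and 9.24 in DNFB arrays, against 4.35, 5.04 and 5.31 in vehicle arrays. All DNFB arrays lay above all vehicle arrays of the same genotype, and the DNFB groups overlapped with each other. The DNFB minus vehicle difference was 2.12 ± 0.31 in NICD mice (4.34-fold, adjusted p 1.93e-05) and 3.33 ± 0.26 in control mice (10.05-fold, adjusted p 2.22e-09). Without NICD vehicle replicate 4 the difference in NICD mice was 1.90 ± 0.32 (adjusted p 0.000127). In bulk RNA from sorted cells, a change in the number of cells that express a gene and a change in RNA per cell cannot be told apart, and this holds for every value given here.

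Apln was higher in NICD than control mice in vehicle ears and was not shown to differ in DNFB ears. In vehicle ears it was 1.16 ± 0.29 higher in NICD than control mice (2.23-fold, 95% interval 0.56 to 1.76, adjusted p 0.00451), and 1.48 ± 0.29 after centring (adjusted p 0.00152). Without NICD vehicle replicate 4 it was 1.38 ± 0.30 (adjusted p 0.0025). The lowest NICD vehicle array, 5.43, was above the highest control vehicle array, 5.31. In DNFB ears the means were 8.22 ± 0.32 in NICD mice (SD, n = 4) and 8.27 ± 0.55 in control mice (SD, n = 6), a difference of -0.05 ± 0.29 with limma adjusted p 0.897 (0.32 ± 0.29 and 0.434 after centring). The smaller DNFB effect in NICD mice, by -1.21 ± 0.41 (95% interval -2.06 to -0.36), did not pass the test of the difference itself (adjusted p 0.292). As for every member, its genotype values cannot be told apart from sex, since NICD and control arrays differ in Xist and Eif2s3y. Apln lies on chromosome X, and the part of sex in its values was not tested.

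Aplnr (probe set 17372725, chromosome 2) encodes the apelin receptor, a G protein-coupled receptor of venous and stalk endothelium in the mouse retina. Its log2 values were 6.56, 6.72, 7.11 and 6.03 in NICD DNFB arrays, against 8.02, 8.11, 8.50 and 7.35 in NICD vehicle arrays. In control mice the lowest, median and highest were 6.06, 6.73 and 7.43 in DNFB arrays, against 8.28, 8.61 and 8.77 in vehicle arrays. No DNFB array reached the lowest vehicle array of its genotype. The difference was -1.39 ± 0.28 in NICD mice (2.62-fold lower, adjusted p 0.000454) and -1.86 ± 0.23 in control mice (3.62-fold lower, adjusted p 1.02e-06). The 2 effects differed by 0.47 ± 0.36 (95% interval -0.28 to 1.22, adjusted p 0.676). Between genotypes Aplnr did not pass in DNFB ears (-0.09 ± 0.25, adjusted p 0.807) or in vehicle ears (-0.56 ± 0.25, adjusted p 0.0902). After centring the values were 0.28 ± 0.26 in DNFB ears, with the sign turned, and -0.23 ± 0.26 in vehicle ears, and neither passed. As deposited, the vehicle value was -0.72 without NICD vehicle replicate 3 (adjusted p 0.0492) and -0.34 without NICD vehicle replicate 4 (adjusted p 0.324).

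**Figure D1:**
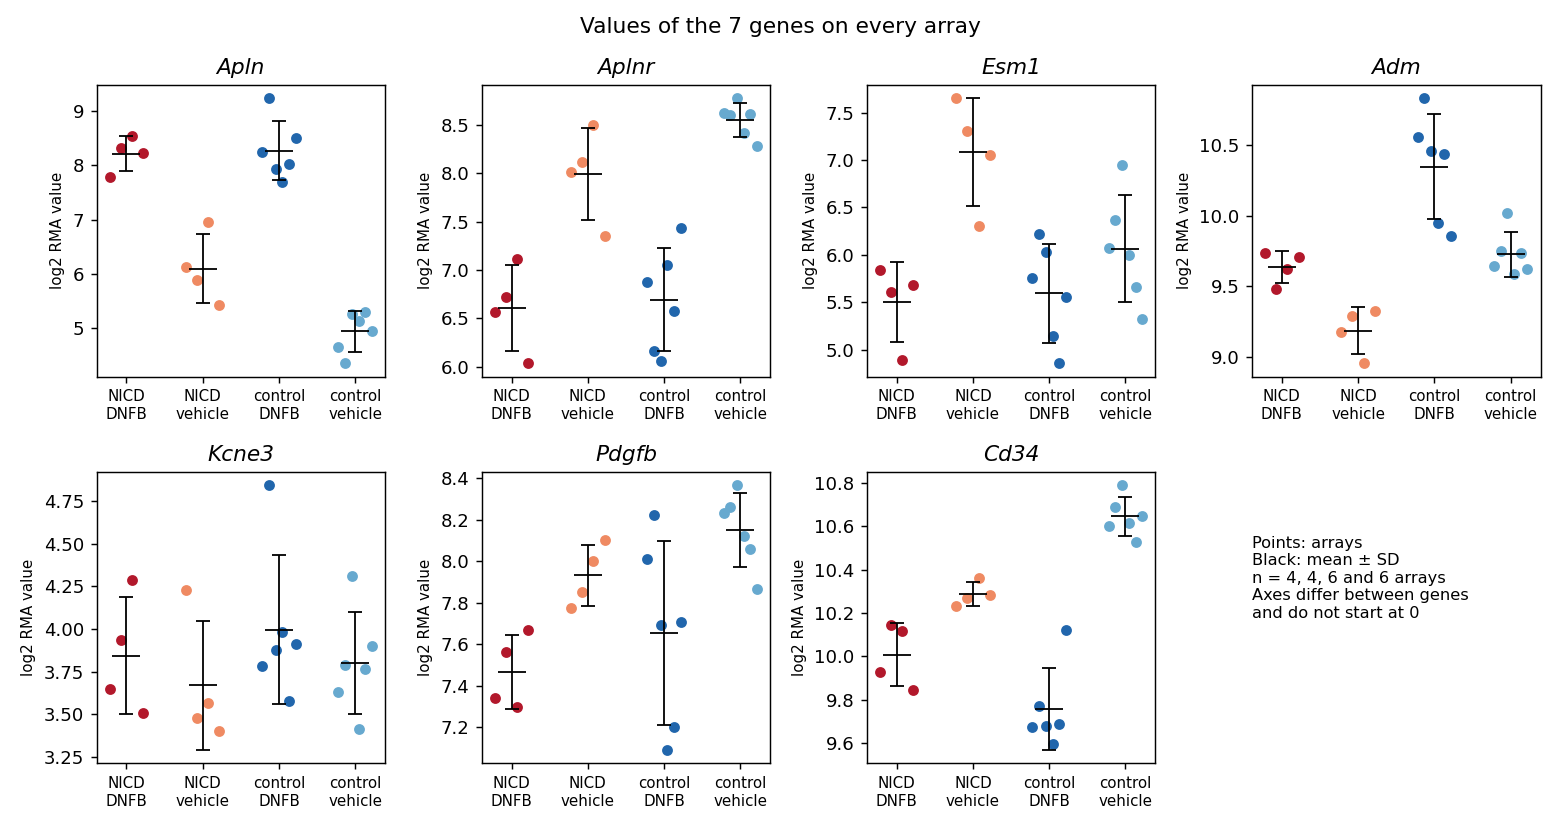
Log2 RMA values (y axes, which differ between genes and do not start at 0) of the 7 genes on each array (points) in the NICD DNFB, NICD vehicle, control DNFB and control vehicle groups, with the mean ± SD in black (n = 4, 4, 6 and 6). Apln is high in both DNFB groups and Aplnr high in both vehicle groups, with no overlap within a genotype.

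Adm (probe set 17481770, chromosome 7) encodes adrenomedullin, a secreted peptide that widens vessels and tightens the endothelial barrier. Its log2 values were 9.73, 9.48, 9.62 and 9.71 in NICD DNFB arrays, against 9.17, 9.29, 8.95 and 9.33 in NICD vehicle arrays. In control mice the lowest, median and highest were 9.86, 10.45 and 10.83 in DNFB arrays, against 9.58, 9.69 and 10.02 in vehicle arrays. The 2 NICD groups did not overlap, and the 2 control groups overlapped. Adm was 0.45 ± 0.17 higher with DNFB in NICD mice (1.37-fold, adjusted p 0.0428) and 0.62 ± 0.14 higher in control mice (1.54-fold, adjusted p 0.000924). The call in NICD mice was lost in 6 of 20 fits that left out 1 array, where the adjusted p reached 0.127. These were the fits without NICD DNFB replicate 1, 3 or 4 or NICD vehicle replicate 1, 2 or 3. Leaving out a control array does not change this difference. Of the 4 NICD DNFB and 4 NICD vehicle arrays, only NICD DNFB replicate 2 and NICD vehicle replicate 4 could be left out with the call kept. The call was also lost with quantile normalization, at 0.29 (adjusted p 0.207), and cyclic loess, at 0.31 (adjusted p 0.164). It was lost too without a filter (adjusted p 0.0699) and with all probe sets above the filter, with or without a symbol (adjusted p 0.0624). The adjusted p ranged from 0.0173 to 0.207 over the alternatives.

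Adm was lower in NICD than control ears as deposited, with differences of -0.71 ± 0.16 in DNFB ears (adjusted p 0.0015) and -0.54 ± 0.16 in vehicle ears (adjusted p 0.0114). Neither pair of groups overlapped. After centring the difference was -0.34 ± 0.16 in DNFB ears (adjusted p 0.109) and -0.21 ± 0.16 in vehicle ears (adjusted p 0.372), so both calls were lost. The call in DNFB ears was kept under the other alternatives, quantile normalization and cyclic loess among them. The call in vehicle ears was also lost with quantile normalization (-0.44, adjusted p 0.0622) and cyclic loess (-0.45, adjusted p 0.0554). The DNFB effects of the genotypes differed by -0.17 ± 0.22 (95% interval -0.63 to 0.29, adjusted p 0.83).

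The partners of the 2 peptides were given as a list of 10 genes, of which 8 were measured and 6 were above the filter. In NICD mice 0 rose and 3 fell with DNFB, and in control mice 1 rose and 4 fell. Calcrl, the receptor that adrenomedullin uses, changed by -0.39 ± 0.13 in NICD mice (adjusted p 0.0244) and -0.75 ± 0.11 in control mice (adjusted p 8.9e-06). Ramp2, the accessory protein that makes Calcrl an adrenomedullin receptor, changed by -0.51 ± 0.13 in NICD mice (adjusted p 0.0044) and -0.77 ± 0.11 in control mice (adjusted p 6.54e-06). Ramp1 fell by 1.47 in NICD mice and by 1.04 in control mice on the log2 scale. Aplnr, Calcrl and Ramp2 were thus lower, and Apln and Adm higher, with DNFB in both genotypes in the main fit. In NICD mice the Calcrl call ended after centring (-0.35 ± 0.14, adjusted p 0.0613), and the Adm call was lost under several alternatives. Ramp3, another accessory protein of Calcrl, had values of 0.30 ± 0.22 in NICD mice (adjusted p 0.324) and 0.38 ± 0.18 in control mice (adjusted p 0.099). Gpr182, a scavenging receptor, had values of -0.35 ± 0.21 in NICD mice, which did not pass, and -1.02 ± 0.17 in control mice, which did, and no list member passed the test of the difference. Ackr3, a scavenging receptor for adrenomedullin, was 0.49 ± 0.18 higher with DNFB in control mice (adjusted p 0.0268).

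Esm1 (probe set 17290010, chromosome 13) encodes endocan, a secreted proteoglycan induced by vascular endothelial growth factor and widely used as a tip cell marker. Its log2 values were 5.84, 5.61, 4.89 and 5.68 in NICD DNFB arrays, against 7.65, 7.30, 6.31 and 7.06 in NICD vehicle arrays. In control mice the lowest, median and highest were 4.85, 5.65 and 6.22 in DNFB arrays, against 5.32, 6.03 and 6.95 in vehicle arrays. The NICD groups did not overlap and the control groups did. Esm1 fell by 1.58 ± 0.34 on the log2 scale in NICD mice (2.98-fold, adjusted p 0.000977), whereas the control value, -0.47 ± 0.28, did not pass (adjusted p 0.178). The control value did pass in the fit with genotype and replicate number as a fixed block (adjusted p 0.0207). The difference between the DNFB effects of the genotypes was -1.11 ± 0.44 (95% interval -2.03 to -0.18) with an adjusted p of 0.372, so the genotypes are not shown to differ.

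In vehicle ears Esm1 was 1.02 ± 0.31 higher in NICD than control mice (2.02-fold, adjusted p 0.0164), with overlapping arrays, and 1.34 ± 0.31 higher after centring (adjusted p 0.00561). Without NICD vehicle replicate 1 the value was 0.83 with adjusted p 0.0671. Without NICD vehicle replicate 4 it was 1.03 ± 0.35 with adjusted p 0.0344. In DNFB ears the means were 5.50 ± 0.42 in NICD mice (SD, n = 4) and 5.59 ± 0.52 in control mice (SD, n = 6), with a limma adjusted p of 0.841 (difference -0.09 ± 0.31, and 0.28 ± 0.31 after centring, which did not pass). Esm1 and Apln, both described in tip cells, were both higher in NICD than control vehicle ears, while with DNFB in NICD mice Apln rose and Esm1 fell.

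Pdgfb (probe set 17319380, chromosome 15) encodes a growth factor that endothelium secretes to recruit pericytes. It is also the gene named for the Cre driver in the genotype label. Its log2 values were 7.34, 7.56, 7.30 and 7.67 in NICD DNFB arrays, against 7.77, 7.85, 7.9993 and 8.10 in NICD vehicle arrays. In control mice the lowest, median and highest were 7.09, 7.70 and 8.22 in DNFB arrays, against 7.86, 8.18 and 8.37 in vehicle arrays. The NICD groups did not overlap and the control groups did. Pdgfb fell by 0.50 ± 0.16 on the log2 scale in control mice (1.41-fold, adjusted p 0.0138), and the value in NICD mice, -0.46 ± 0.19, missed the threshold (adjusted p 0.0664). That value passed under 8 alternatives, among them cyclic loess (-0.55, adjusted p 0.0321), trended and robust variances (adjusted p 0.0461) and a fit to the groups compared alone (adjusted p 0.0187), and did not without NICD vehicle replicate 4 (-0.41 ± 0.21, adjusted p 0.154). The 2 effects differed by 0.03 ± 0.25 (95% interval -0.49 to 0.56), and genotype differences in DNFB ears (-0.19 ± 0.18) and vehicle ears (-0.22 ± 0.18) did not pass. After centring they were 0.19 ± 0.17 in DNFB ears and 0.11 ± 0.17 in vehicle ears, with the sign turned, and did not pass either.

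Relatives and receptors of Pdgfb, with the channel partners of Kcne3, made a list of 7 genes with 6 measured, all above the filter. In each genotype 2 rose and 2 fell with DNFB. Pdgfa, the related growth factor, rose by 0.73 ± 0.12 in NICD mice and 0.95 ± 0.10 in control mice, and Pdgfd changed by -1.15 ± 0.23 in NICD mice and -1.39 ± 0.19 in control mice. The pericyte receptor Pdgfrb fell by 0.85 in NICD mice and 0.69 in control mice on the log2 scale, and the fibroblast receptor Pdgfra rose by 0.87 ± 0.30 in NICD mice and 1.53 ± 0.24 in control mice. Pericyte and smooth muscle markers fell with DNFB at 6 of 9 in NICD mice and 8 of 9 in control mice. Their mean level per array was 7.68 to 8.10 in NICD DNFB, 8.71 to 8.87 in NICD vehicle, 7.78 to 8.55 in control DNFB and 8.84 to 9.20 in control vehicle arrays. The part of those cells in the Pdgfb and Pdgfrb values was not tested.

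Kcne3 (probe set 17480641, chromosome 7) encodes an accessory subunit that alters potassium channels. It was above the array median on 9 of 20 arrays, so its values are low on these arrays. They were 3.65, 3.94, 4.29 and 3.51 in NICD DNFB arrays and 4.23, 3.48, 3.57 and 3.40 in NICD vehicle arrays, and in control mice ran from 3.58 to 4.85 in DNFB arrays (median 3.89) and from 3.42 to 4.31 in vehicle arrays (median 3.78). All 4 groups overlapped. The DNFB minus vehicle difference was 0.18 ± 0.25 in NICD mice (95% interval -0.34 to 0.69) and 0.19 ± 0.20 in control mice (95% interval -0.22 to 0.61). Neither passed, and the NICD minus control differences, -0.15 ± 0.22 in DNFB ears and -0.13 ± 0.22 in vehicle ears, did not pass (0.22 ± 0.23 and 0.19 ± 0.23 after centring, with the sign turned). Its partner Kcnq1 had values of -0.34 ± 0.22 with DNFB in NICD mice and -0.16 ± 0.18 in control mice.

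Cd34 (probe set 17221014, chromosome 1) encodes a sialomucin of the endothelial surface that is dense on tip cell filopodia. Its log2 values were 9.93, 10.14, 10.12 and 9.85 in NICD DNFB arrays, against 10.23, 10.27, 10.36 and 10.28 in NICD vehicle arrays. In control mice the lowest, median and highest were 9.59, 9.68 and 10.12 in DNFB arrays, against 10.53, 10.63 and 10.79 in vehicle arrays. No DNFB array overlapped with the vehicle arrays of its genotype. The difference was -0.89 ± 0.09 in control mice (1.86-fold lower, adjusted p 1.1e-07). In NICD mice it was -0.28 ± 0.11 (adjusted p 0.057), which passed under some alternatives, such as quantile normalization (-0.38, adjusted p 0.00823) and leaving out control DNFB replicate 6 (adjusted p 0.0255).

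The DNFB effects on Cd34 differed by 0.61 ± 0.15 (95% interval 0.31 to 0.92, unadjusted p 0.000413), with the smaller fall in NICD mice. That difference had an adjusted p of 0.118 and ranged from 0.032 to 0.265 over the alternatives, passing with trended and robust variances and without control DNFB replicate 6 (0.69, adjusted p 0.0322). In vehicle ears the NICD minus control difference was -0.36 ± 0.10 (adjusted p 0.0106), and -0.03 ± 0.11 after centring (adjusted p 0.868). In DNFB ears it was 0.25 ± 0.10 (adjusted p 0.0544), and 0.63 ± 0.11 after centring (adjusted p 0.000368). The vehicle-ear call was lost after centring and with cyclic loess (-0.28, adjusted p 0.0637). The DNFB-ear difference was positive under every alternative (0.21 to 0.63), with adjusted p from 0.000368 to 0.161. On the deposited scale it passed under some of them, such as trended and robust variances (adjusted p 0.0229) and without control DNFB replicate 6 (0.33, adjusted p 0.00794). Among its relatives Podxl fell in NICD mice (-0.57 ± 0.17) and control mice (-0.85 ± 0.14), and Emcn fell in control mice (-0.32 ± 0.10) but had a value of 0.28 ± 0.13 in NICD mice.

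**Figure D2:**
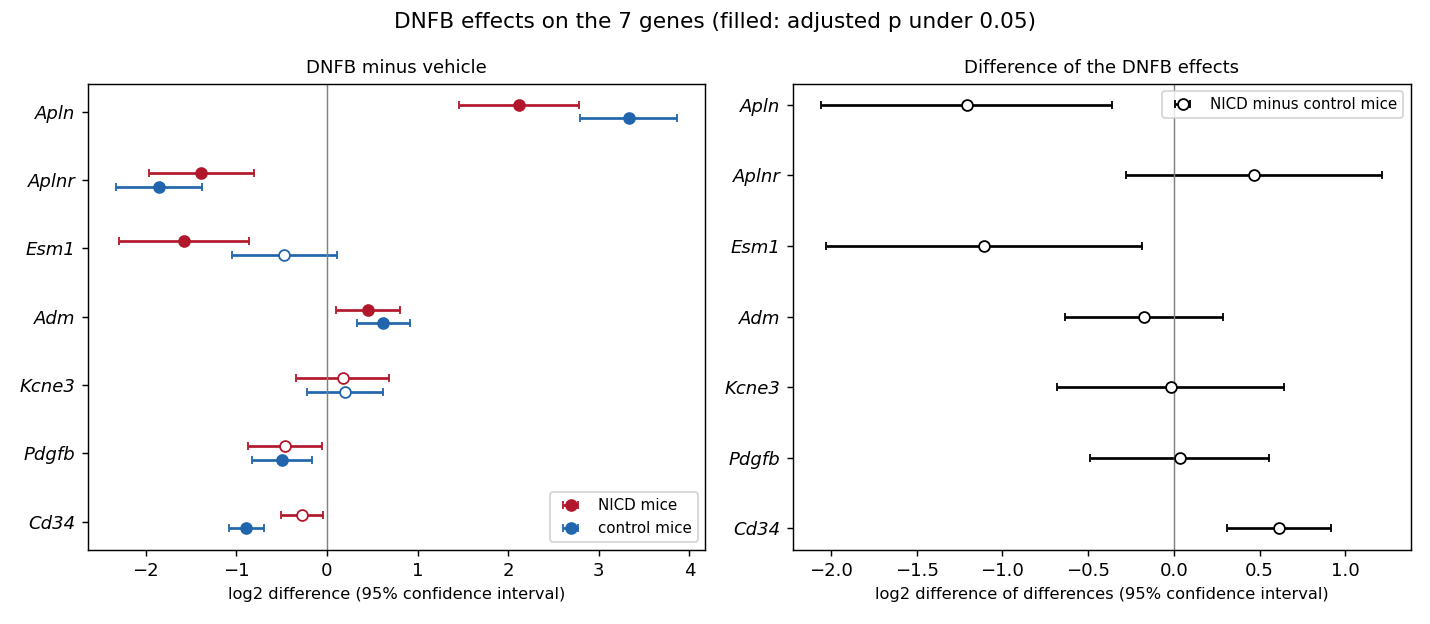
Log2 differences with 95% intervals, DNFB minus vehicle in NICD and control mice (left) and the difference of those effects (right), with filled points where the adjusted p was under 0.05. Apln lies at 2.12 and 3.33 and Aplnr at -1.39 and -1.86, and no member is filled on the right.

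In the difference of DNFB effects 0.0134% of all probe sets passed (2 of 14886, 0.00672% in each direction) and 0 of the 7 members, by limma, although 1580 probe sets had an unadjusted p under 0.05. Unadjusted, Apln (0.00747), Esm1 (0.0212) and Cd34 (0.000413) were the members below 0.05. Between genotypes, 1 member passed in DNFB ears as deposited, lower in NICD mice, where 40.5% of all probe sets did (5.45% higher, 35.1% lower). In vehicle ears 4 did, 2 higher and 2 lower, where 35.9% of all probe sets did (2.88% higher, 33% lower). After centring the counts were 1 member higher in DNFB ears (28.8% of all probe sets, 20.7% higher and 8.12% lower) and 2 higher in vehicle ears (18.4%, 11.9% higher and 6.54% lower). Centring set the median difference of all probe sets at 0.10 in DNFB ears and 0.05 in vehicle ears, against -0.27 in DNFB ears and -0.28 in vehicle ears as deposited, so a difference of a member is read against those shifts. Apln and Esm1 in vehicle ears passed on both scales, and Adm and Cd34 did not. Without NICD vehicle replicate 4 the DNFB calls in NICD mice held for Aplnr (-1.60 ± 0.28, adjusted p 0.000162), Esm1 (-1.58 ± 0.38, adjusted p 0.00287) and Adm (0.50 ± 0.19, adjusted p 0.0466), and Cd34 was -0.28 ± 0.12 (adjusted p 0.0929) and Kcne3 0.086 ± 0.27 (adjusted p 0.847). In vehicle ears without that array the NICD minus control difference was -0.59 ± 0.17 for Adm (adjusted p 0.0164) and -0.36 ± 0.12 for Cd34 (adjusted p 0.0257), and -0.28 ± 0.20 for Pdgfb and -0.044 ± 0.25 for Kcne3, which did not pass. The difference of DNFB effects without it was -1.43 ± 0.40 for Apln (adjusted p 0.277), -1.11 ± 0.48 for Esm1 (adjusted p 0.497) and 0.61 ± 0.16 for Cd34 (adjusted p 0.229), and no member passed.

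**Figure D3:**
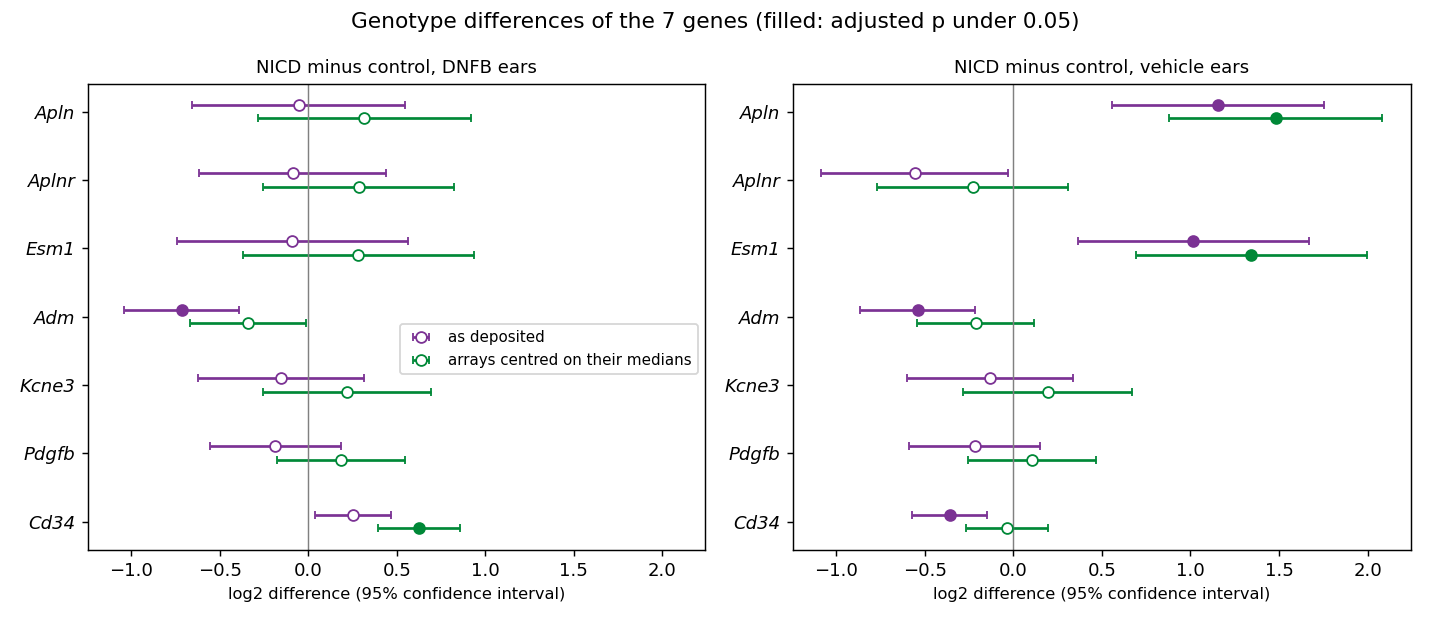
NICD minus control log2 differences with 95% intervals in DNFB ears (left) and vehicle ears (right), as deposited (purple) and with arrays centred on their medians (green), filled where the adjusted p was under 0.05. Apln and Esm1 are filled on both scales in vehicle ears, while Adm and Cd34 change between scales.

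Other genes enriched in sprouting tip endothelium were listed beside the members, 28 in all and all above the filter. With DNFB 15 rose and 5 fell in NICD mice, and 12 rose and 7 fell in control mice. Over all probe sets 20% were higher and 18.1% lower in NICD mice, and 23.7% higher and 23.6% lower in control mice. The DNFB counts of every gene and marker list are read beside those shares. Their median difference was 0.36 in NICD mice and 0.11 in control mice, against 0.01 in NICD mice and -0.0012 in control mice over all probe sets. Plaur, the urokinase receptor, rose by 2.52 ± 0.13 in NICD mice and 2.05 ± 0.11 in control mice. Mmp14, a membrane metalloproteinase, rose by 1.54 ± 0.16 in NICD mice and 1.31 ± 0.13 in control mice. Nrp1, a co-receptor for vascular endothelial growth factor, changed by -1.18 ± 0.12 in NICD mice and -1.78 ± 0.10 in control mice. Col4a1, a basement membrane collagen, rose by 0.90 ± 0.09 in NICD mice, and Inhbb, an activin subunit, rose by 2.26 ± 0.19 in control mice. The listed genes did not all move one way: in both genotypes Plaur rose, as Apln did, and Nrp1 fell, as Aplnr did.

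**Figure D4:**
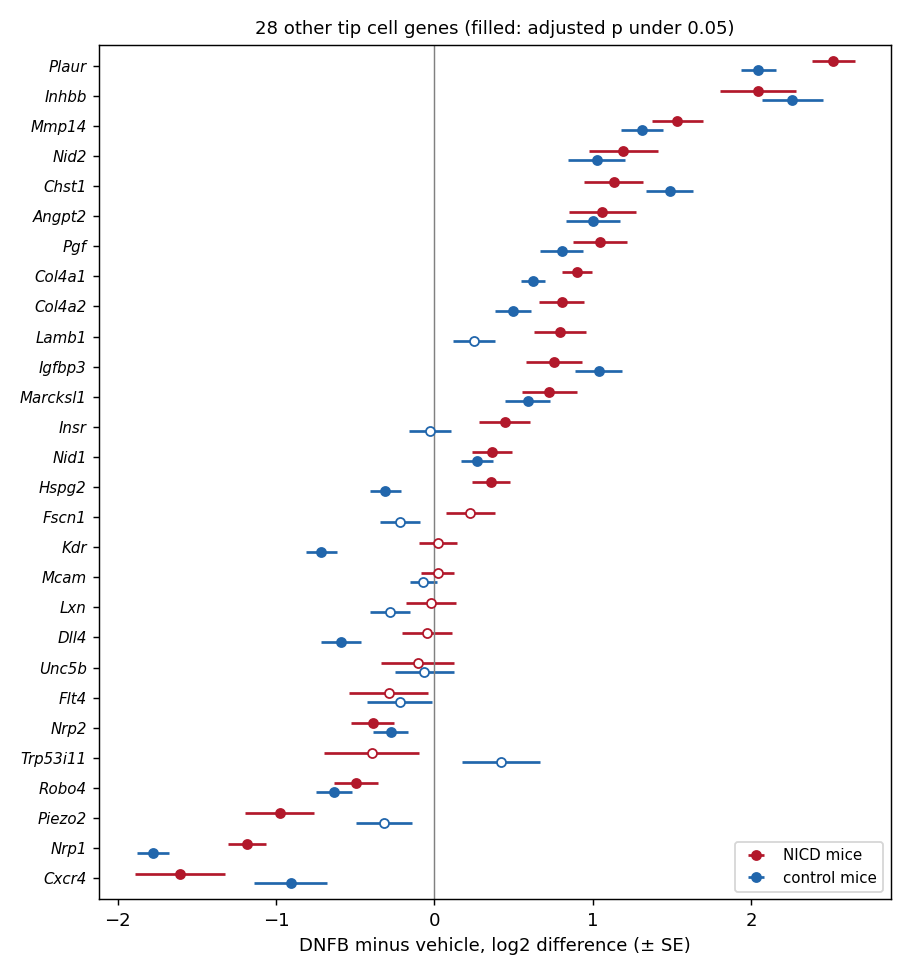
DNFB minus vehicle log2 differences (± SE) of 28 other tip cell genes in NICD mice (red) and control mice (blue), filled where the adjusted p was under 0.05. Plaur, Inhbb and Mmp14 lie to the right in both genotypes and Nrp1 and Cxcr4 to the left.

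Between genotypes 10 of the 28 were higher and 2 lower in NICD than control DNFB ears (16 and 1 after centring). In vehicle ears 5 were higher and 5 lower (9 and 1 after centring). Over all probe sets 5.45% were higher and 35.1% lower in DNFB ears (20.7% and 8.12% after centring). The shares in vehicle ears were 2.88% higher and 33% lower (11.9% and 6.54% after centring). Igfbp3, a binding protein for insulin-like growth factors, was 1.20 ± 0.16 higher in NICD DNFB ears and 1.48 ± 0.16 higher in NICD vehicle ears. Kdr, the main endothelial receptor for vascular endothelial growth factor, was 0.60 ± 0.11 higher in NICD DNFB ears, and Trp53i11 was lower in NICD ears, at -2.03 ± 0.27 with DNFB and -1.21 ± 0.27 with vehicle. In vehicle ears Piezo2, a mechanosensitive channel, was 1.15 ± 0.20 higher in NICD mice. Each of these 4 genes also passed after centring, in the same direction. Plaur did not: in NICD minus control vehicle ears it was -0.66 ± 0.12 as deposited (adjusted p 0.000504) and -0.34 ± 0.13 after centring (adjusted p 0.083).

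Stalk and Notch response genes are the counterpart of tip cell genes in the retina, and 10 were measured above the filter. With DNFB 1 rose and 5 fell in NICD mice and 0 rose and 7 fell in control mice. Hey2, a Notch target repressor, fell by 1.25 in NICD mice and by 1.27 in control mice on the log2 scale. Vwf, the von Willebrand factor, fell by 1.30 in NICD mice and by 1.35 in control mice. Flt1, a decoy receptor for vascular endothelial growth factor, rose by 0.49 ± 0.10 in NICD mice. Between genotypes Hey1, a Notch target, was 1.10 ± 0.11 higher in NICD DNFB ears and 0.59 ± 0.11 higher in NICD vehicle ears, and it passed after centring too. Hes1, another Notch target, was lower in NICD ears, at -0.85 ± 0.14 with DNFB and -0.59 ± 0.14 with vehicle. After centring it was -0.47 in DNFB ears, which passed (adjusted p 0.0113), and -0.26 in vehicle ears, which did not (adjusted p 0.18). Of the 10 genes, 4 were higher and 1 lower in NICD DNFB ears (7 and 1 after centring). In vehicle ears 1 was higher and 3 lower (2 and 0 after centring). The shares over all probe sets are those given with the tip cell genes.

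Adm and Apln are also known targets of hypoxia-inducible factors, and 12 other such genes were above the filter. With DNFB 4 rose and 4 fell in NICD mice, and 5 rose and 3 fell in control mice. Pgk1, a glycolytic enzyme, rose by 1.97 ± 0.14 in NICD mice and 1.77 ± 0.12 in control mice. Ndrg1 fell by 0.93 in NICD mice and by 0.99 in control mice on the log2 scale, and Bnip3, a mitochondrial protein, changed by -1.68 ± 0.17 in NICD mice and -0.99 ± 0.14 in control mice. The list therefore held members that moved with Apln and Adm and members that moved against them. Between genotypes 0 were higher and 8 lower in NICD DNFB ears as deposited (0 and 3 after centring), with Ldha, a lactate dehydrogenase subunit, at -1.16 ± 0.10. Over all probe sets 5.45% were higher and 35.1% lower there as deposited (20.7% and 8.12% after centring).

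Markers of other cells moved with DNFB as well. Counts are over the markers above the filter, and mean levels over all markers measured, which for neutrophils were 7 and 8. Pan-endothelial markers fell at 5 of 9 in NICD mice and 8 of 9 in control mice, and their mean level per array was 9.54 to 9.84 in NICD DNFB, 10.1 to 10.3 in NICD vehicle, 9.35 to 9.81 in control DNFB and 10.2 to 10.4 in control vehicle arrays. Neutrophil markers rose at 6 of 7 in NICD mice and 7 of 7 in control mice, with mean levels of 5.12 to 5.46 in NICD DNFB, 3.19 to 3.49 in NICD vehicle, 4.90 to 6.08 in control DNFB and 3.14 to 3.50 in control vehicle arrays. Platelet markers rose at 4 of 5 in NICD mice and 5 of 5 in control mice, with mean levels of 5.74 to 6.31 in NICD DNFB, 4.15 to 4.61 in NICD vehicle, 6.31 to 7.53 in control DNFB and 4.78 to 5.53 in control vehicle arrays. Keratinocyte markers rose at 3 of 9 and fell at 1 in NICD mice, and rose at 4 and fell at 2 in control mice. Their mean levels were 7.90 to 8.53 in NICD DNFB, 6.61 to 7.33 in NICD vehicle, 7.29 to 9.39 in control DNFB and 6.02 to 7.19 in control vehicle arrays. Pan-leukocyte markers rose at 2 of 3 in NICD mice and 3 of 3 in control mice, with mean levels of 4.18 to 5.09 in NICD DNFB, 3.49 to 3.61 in NICD vehicle, 4.14 to 5.46 in control DNFB and 3.61 to 4.14 in control vehicle arrays. Among them Ptprc, which encodes the CD45 that the sort selected against, was 4.86 ± 0.67 in NICD DNFB and 3.30 ± 0.25 in NICD vehicle arrays (SD, n = 4 each), and 5.00 ± 0.62 in control DNFB and 3.79 ± 0.26 in control vehicle arrays (SD, n = 6 each). Macrophage and monocyte markers rose at 4 of 6 in both genotypes and fell at 1 in control mice. Fibroblast markers rose at 2 of 7 and fell at 2 in NICD mice, and rose at 3 of 7 and fell at 0 in control mice, and none of 3 T and NK cell or 2 mast cell markers passed. Lymphatic endothelial markers were higher in NICD ears, at 3 of 5 in DNFB and 4 of 5 in vehicle ears as deposited (3 and 5 after centring). Over all probe sets 5.45% were higher in DNFB ears and 2.88% in vehicle ears as deposited (20.7% and 11.9% after centring). Mean levels of the lymphatic markers were 8.16 to 9.07 in NICD DNFB, 7.94 to 9.12 in NICD vehicle, 7.64 to 8.19 in control DNFB and 6.997 to 7.67 in control vehicle arrays. The part of these cells in the DNFB and genotype values of the members was not tested.

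The genes whose profiles over the 20 arrays were most like each member are given by Pearson r after subtracting each array's median. They are a description, since the arrays come from 4 groups and differences between groups enter r. For Apln they were Mrpl52 (0.965), Pes1 (0.958) and Eif3b (0.954), and for Aplnr Cmtm8 (0.938), Etv1 (0.929) and Glul (0.929). Esm1 was most like Syne1 (0.912), Arhgap5 (0.903) and Hp1bp3 (0.880), and Adm most like Champ1 (0.886), Spred1 (0.880) and Trip6 (0.876). Pdgfb was most like Patz1 (0.863), Kif1b (0.821) and Eepd1 (0.820), and Cd34 most like Slfn5 (0.960), Nynrin (0.958) and Nicn1 (0.956). Kcne3 had the weakest likeness of the members, with Setd6 (0.776), Mettl4 (0.727) and Cst7 (0.704).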

How the data were processed

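The deposited values are log2 values by robust multi-array average (RMA), 1 for each probe set on each of 20 arrays. RMA and Affymetrix Expression Console are named in the submitters' processing notes, and versions and options are not given in the sources used here. Minimum values ran from 1.18 to 1.30 over the NICD arrays and from 0.412 to 0.590 over the control arrays. The table held 41345 probe sets, of which 23521 had 1 gene symbol, 1814 several and 16010 none in the platform annotation. Kept were the 14886 probe sets with 1 symbol whose value lay over the median of the array on 4 arrays or more. Group means over the 20 arrays were compared by limma 3.58.1 (R 4.3.3). Its p-values were adjusted by Benjamini-Hochberg over those probe sets and read at a threshold of 0.05. The procedure was tested on simulated data. Plots used matplotlib 3.10.9 (Python 3.11.15).

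The members and gene lists were chosen with earlier results of these data known, so their counts are descriptions and carry no test of the list. All 7 members are named whatever their values. From each list up to 4 genes with the smallest adjusted p in a comparison are named, and for each member the 3 genes of highest Pearson r. Gpr182, Ackr3, Kcnq1, Emcn, Ramp3, Inhbb and Cxcr4 are named in comparisons outside that rule, after their values were seen. The labels do not say that replicates are separate mice, so p-values measure the spread between these samples, which may be technical. The number of arrays limits the precision. Whether same-numbered DNFB and vehicle arrays pair was checked over 10 pairs. Their correlations of deviations ran from 0.042 to 0.269, with 5 over 0.1, and 7 of 10 DNFB arrays correlated best with their own number. Pairing is thus not excluded. The main fit did not treat these arrays as pairs, and fits with replicate blocks are given among the alternatives. Alternatives were other filters, median centring, quantile normalization and cyclic loess, array weights, variances that were trended and robust, fits to the compared groups alone, replicate blocks, a limit of 1 log2 unit and each array left out.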

Additional observations from a re-analysis of the deposited data

Results flagged for a closer look

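Over 28 sets of values, 7 genes in 4 groups, 2 held an array far from the others of its group, and chance flags about 1 in 20 groups. Kcne3 was 4.85 in control DNFB replicate 2, where the gap to the nearest array was 0.681 of the group's range (limit 0.625). Cd34 was 10.1 in control DNFB replicate 6, with a gap of 0.667 of the range. Without that array the Cd34 difference of DNFB effects was 0.69 (adjusted p 0.0322).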

How the results depend on the processing

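Apln and Aplnr kept their DNFB direction and call in both genotypes under every alternative run. With each array left out in turn, member values kept direction and call in 667 fits, while 18 reversed, 8 gained and 7 lost a call. These counts include fits in which the array left out was in neither group compared. In such fits the difference itself cannot change, so the 667 is not a measure of stability. Requiring a difference of at least 1 log2 unit left 2 members with DNFB in control mice and 3 in NICD mice. Between genotypes it left 0 in DNFB ears and 2 in vehicle ears. Probe sets numbered 1693, 1619, 801 and 503 in the control, NICD, DNFB ear and vehicle ear comparisons. In DNFB ears 2 members passed under the stricter filter, quantile normalization, trended variances, array weights and the number block, and 1 to 2 with an array left out. Probe sets there numbered 3553 with quantile normalization and 3539 with cyclic loess. In vehicle ears 2 members passed with median centring and cyclic loess, and probe sets numbered 2741, 2412 and 2326 with centring, quantile and loess. For the difference of DNFB effects 1 member passed with trended variances and 0 to 1 with an array left out. Probe sets numbered 1 without a filter, 0 with all probe sets, 1 with quantile, 1 with loess, 27 with trended variances, 17 with array weights, and 0 to 29 with an array left out (29 without control DNFB replicate 6).

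The replicate block gave 1 probe set for the difference with number fixed and 20 with a random block. With number fixed, 3 members passed in vehicle ears, Esm1 losing its call (0.78, adjusted p 0.0522). With genotype and number fixed, the DNFB difference of Esm1 in control mice passed (-0.47, adjusted p 0.0207), as did that of Pdgfb in NICD mice (adjusted p 0.0438). Of 10 DNFB arrays, 7 correlated best with their own number.

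In DNFB ears the NICD minus control sign turned, without a call, under centring, quantile and loess for Apln (0.32, 0.069, 0.15), Aplnr (0.28, 0.13, 0.066), Esm1 (0.28, 0.25, 0.20) and Kcne3 (0.22, 0.25, 0.29), and under centring for Pdgfb (0.19). With an array left out the ranges were -0.17 to 0.14 for Apln, -0.26 to 0.10 for Aplnr, -0.24 to 0.12 for Esm1 and -0.30 to 0.018 for Kcne3. In vehicle ears the sign turned for Kcne3 (0.19, 0.18, 0.27) and under centring for Pdgfb (0.11). For the difference of effects it turned for Kcne3 (0.027, 0.077, 0.022; array left out -0.17 to 0.17) and for Pdgfb under loess (-0.0071; array left out -0.080 to 0.15). The cause was not tested. No member had another probe set with 1 symbol, the stricter filter left Kcne3 out, and a fixed block of genotype and number gives no genotype comparison.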
